A study of Rattus norvegicus with 4 samples.

Results

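The 10 genes described here are markers of cholangiocytes, the epithelial cells that line the bile ducts, and of the liver progenitor cells that resemble them: the keratins Krt19, Krt7, Krt8 and Krt18, the transcription factor Sox9, the surface proteins Epcam, Cd24 and Prom1, the secreted protein Spp1 and the proteoglycan Gpc3. They are the 10 of the 31457 rows of the deposited table with these gene symbols, a set put together with earlier results of these data known. Krt7 and Sox9 were listed at 0 in all 4 libraries, and the other 8 markers had a value. Of these 8, 5 passed the filter on low levels (Krt19, Krt8, Krt18, Epcam and Gpc3) and 3 did not (Spp1, Cd24 and Prom1).

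The study profiled poly(A)-selected liver RNA of Lewis rats, an inbred strain labelled with the allotype RT1L, on an Illumina MiSeq. One group was a naive liver. The others came from rats whose liver had been cut back by surgery (partial hepatectomy, after which the remnant regrows) and which were given an intravenous treatment of saline, of cells labelled ASCs-siRNC or of cells labelled ASCs-miR27b. They are called the naive, saline, siRNC and miR-27b libraries here, with 1 library per group. The time between surgery and collection, the age and sex of the rats, and whether a library holds 1 animal or a pool are not stated in the labels. Since each group is a single library, differences here lack a replicate check, no test between conditions was possible, and a treatment and the individual liver cannot be told apart. The comparisons follow the stated aim of setting the miR-27b cells against the siRNC cells and saline, and each hepatectomised liver against the naive one.

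As background, cholangiocytes carry a keratin network of Krt7 and Krt19 in addition to Krt8 and Krt18, the only keratin pair of normal hepatocytes. After liver injury in which hepatocytes cannot divide, ductular cells that carry Sox9, Epcam, Spp1, Cd24 or Prom1 spread from the portal tracts, and some rodent progenitor cells also carry the fetal gene Gpc3. After simple partial hepatectomy the remaining hepatocytes and cholangiocytes themselves divide. In bulk tissue, fewer cells of a type and less RNA per cell cannot be told apart.

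Promoter sequences were taken from RefSeq (build GRCr8, by gene symbol, whereas the submitters' processing notes name rn5), and 7 of the 10 markers were matched. Krt19, Krt7 and Sox9 had no promoter sequence there. Shown are the 250 bases before the gene start, 5′ to 3′ on the gene's strand, for Spp1 and Cd24, which both had saline and miR-27b above the other libraries, and for Gpc3, which did not. In Spp1 (chr14:5619805-5620054, minus strand) the capitals mark the letters ATTGTT, the reverse complement of the SOX factor core AACAAT. In Cd24 (chr20:48656227-48656476, plus strand) and Gpc3 (chrX:137157599-137157848, minus strand) they mark GC boxes, GGGCGG or its reverse complement.
Spp1: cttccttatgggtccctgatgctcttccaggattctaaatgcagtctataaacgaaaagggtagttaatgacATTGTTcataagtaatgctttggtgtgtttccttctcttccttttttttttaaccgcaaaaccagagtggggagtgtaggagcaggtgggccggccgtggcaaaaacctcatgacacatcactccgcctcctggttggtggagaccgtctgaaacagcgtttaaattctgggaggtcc
Cd24: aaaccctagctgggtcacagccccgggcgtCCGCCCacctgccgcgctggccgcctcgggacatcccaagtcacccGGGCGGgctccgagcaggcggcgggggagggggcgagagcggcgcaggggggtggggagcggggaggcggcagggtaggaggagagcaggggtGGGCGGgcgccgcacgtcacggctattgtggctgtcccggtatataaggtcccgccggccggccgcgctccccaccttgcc
Gpc3: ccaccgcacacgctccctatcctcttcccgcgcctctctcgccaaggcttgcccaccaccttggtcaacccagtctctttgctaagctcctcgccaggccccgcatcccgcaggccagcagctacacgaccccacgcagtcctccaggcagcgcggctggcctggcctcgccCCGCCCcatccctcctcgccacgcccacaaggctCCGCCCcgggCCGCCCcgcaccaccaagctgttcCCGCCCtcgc

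Each motif was searched on both strands. The shares are per promoter window, whereas a marker was counted where any of its windows matched, so the 2 are not like for like. The GC boxes and the AP-1 letters of Prom1 were in different windows. The GC box was present in 30.5% of 33469 promoters of this length, and among the markers in Cd24, Epcam, Gpc3, Krt18 and Prom1. The SOX core was in 10.3% of all promoters, and Spp1 was the marker that held it. The TATA box TATAAA (12.9% of promoters) was found in Krt8 and Spp1, and the AP-1 letters TGANTCA (6.34%) in Epcam and Prom1. The core letters TGGGAA of the Notch factor RBPJ (22.1%) and GGAATG of the Hippo factor TEAD (12.1%) were in no window of the 7 matched markers. Krt19, Krt7 and Sox9 could not be searched. These matches describe letters only.

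The microRNA named in the label of the treated cells is given for identity. The labels do not name the arm that was used. Both mature arms of the rat gene are shown from RefSeq (GRCr8, minus strand, chr17:1819163-1819183 for the 3p arm and chr17:1819202-1819225 for the 5p arm), with the seed, bases 2 to 8, in capitals.
rno-miR-27b-3p: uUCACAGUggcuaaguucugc
rno-miR-27b-5p: aGAGCUUAgcugauuggugaacag

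The deposited values are on a log2 scale and relative to a baseline of each gene, so they compare the libraries for 1 gene at a time and hold no level of it. Where the spacing of the values allowed it, the reads behind them were recovered. Those reads are inferred values, not the authors' counts. The reads are small numbers for most of these markers, and each 95% interval below covers counting error only. A gene is called higher or lower where its deposited values differ by at least 1 log2 unit, which is 2-fold.

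In the saline library all 8 markers with a value were above the naive library, beside 46.7% of the 12874 genes with a value. The 5 kept members among them stand beside 48.8% of kept genes. The called members were Krt19 and Gpc3, 2 of the 5 kept members, both higher. Of all 9609 kept genes, 5.83% were higher by that fold and 3.85% were lower. The median log2 fold of the 5 was 0.99, against -0.01 for all kept genes. Krt19 and Gpc3 passed the filter with mean levels of 11.7 and 12.1 normalized reads, close to the minimum of 10. They passed largely through the libraries in which they were high. The counts and the median of the 5 therefore describe the members and support nothing.

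Krt19 (gene ID 360626), the acidic keratin used as the standard marker of bile duct epithelium, had deposited log2 values of -1.26, 0.72, -1.04 and 0.35 in the naive, saline, siRNC and miR-27b libraries. These stand for 5, 20.99, 6 and 14.99 reads. The saline and miR-27b libraries were high, and the naive and siRNC libraries were low and close to each other. Krt19 was higher in saline than in naive by a log2 fold of 1.98 (95% interval 0.54 to 3.74). It was lower in siRNC than in saline by a log2 fold of -1.76 (-3.36 to -0.40). Neither interval included 0, although a pseudocount of 5 lowers the first value to 1.32, whereas the interval of miR-27b against siRNC did, at 1.39 (-0.05 to 3.05). The miR-27b library was above naive by 1.62 (0.08 to 3.43) and was not separable from saline at this depth, at -0.37 (-1.43 to 0.66).

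Krt8 (25626) and Krt18 (294853), the basic and acidic keratins that pair into filaments in hepatocytes and cholangiocytes alike, were placed by the rounding of their values at about 256 or more normalized reads, where counting alone gives a log2 ratio an SD of 0.13. Krt8 had log2 values of -0.49, 0.13, -0.39 and 0.38 in the naive, saline, siRNC and miR-27b libraries. Krt18 had -0.61, 0.09, -0.31 and 0.17 in the same order. Both partners were lowest in naive, next in siRNC, then saline, and highest in miR-27b.

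No Krt8 or Krt18 difference reached 2-fold. Against naive, the log2 folds of Krt8 were 0.62 in saline, 0.10 in siRNC and 0.87 in miR-27b. Those of Krt18 were 0.70, 0.30 and 0.78. The ratio of Krt8 to Krt18 differed from its naive value by -0.08 in saline, -0.20 in siRNC and 0.08 in miR-27b on the log2 scale, smaller in each case than the differences of either gene between its lowest and highest library. The Krt18 step from saline to miR-27b, 0.08, changes sign to -0.08 when the libraries are centred on hepatocyte plasma proteins.

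Krt7 (300242), the basic keratin that pairs with Krt19 in bile ducts, was listed at 0 in every library, and so was Sox9 (140586), the transcription factor of the ductal plate and of biliary cells. In this table a 0 in all libraries cannot be told apart from a level under 1 normalized read or from a gene left out of the counting. The state is shared by 18583 rows. Among them are the endothelial genes Flt1 and Stab1, where 11 of the 13 genes of that list were kept. An absence of Krt7 or Sox9 transcripts from these livers can therefore not be read from the values.

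**Figure D1:**
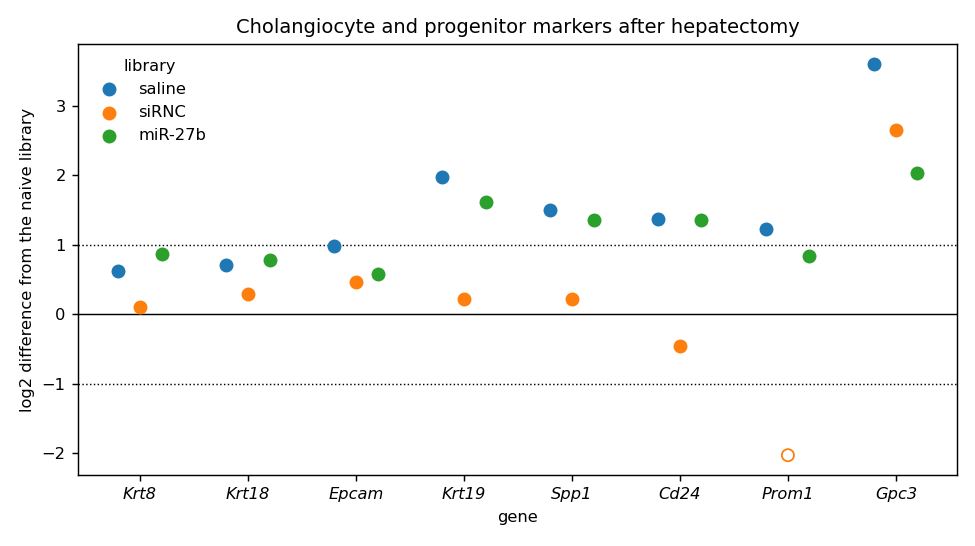
Deposited log2 value of each marker minus its value in the naive library, for the saline (blue), siRNC (orange) and miR-27b (green) libraries, 1 library each; dotted lines mark 2-fold and the open point a library at the floor of 1 normalized read. The orange points lie below the blue and green ones for 7 of the 8 markers, Gpc3 being the exception.

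Epcam (171577), the epithelial adhesion molecule of cholangiocytes and progenitor cells, had log2 values of -0.47 in naive, 0.52 in saline, 0 in siRNC and 0.11 in miR-27b, and was also placed at about 256 or more normalized reads. Saline was the highest library and naive the lowest. Its log2 fold in saline against naive was 0.99, a 1.98-fold difference just short of the 2-fold line, and 0.47 and 0.58 in siRNC and miR-27b against naive. The difference of 0.11 between miR-27b and siRNC was below the counting SD given above and changes sign to -0.11 when centred on the plasma proteins.

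Cd24 (25145) and Prom1 (60357), surface glycoproteins used to sort progenitor cells, were both under the filter. Cd24 had log2 values of -1.05, 0.32, -1.51 and 0.30 in the naive, saline, siRNC and miR-27b libraries, from 4, 11, 3 and 10 reads. The saline and miR-27b libraries lay together above the other pair. The log2 fold was 1.37 in saline against naive (-0.38 to 3.48), -1.83 in siRNC against saline (-4.31 to 0.09) and 1.81 in miR-27b against siRNC (-0.15 to 4.31), all with intervals that included 0. With a pseudocount of 5 they shrink to 0.78, -0.97 and 0.95.

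Prom1 had log2 values of -0.69, 0.54, -2.73 and 0.15, from 4, 10, 0 or 1, and 7 reads. The siRNC library was at the floor of the table and the lowest. Entered as 1 read, it gave a log2 fold of -3.27 (-8.71 to -0.46) in siRNC against saline, and of 2.87 (-0.08 to 8.37), an interval that includes 0, in miR-27b against siRNC. With a pseudocount of 5 these values shrink to -1.29 and 1.04. In saline against naive its log2 fold was 1.23 (-0.56 to 3.36).

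Spp1 (25353), which encodes osteopontin, a secreted integrin ligand made by biliary cells and also by activated macrophages, had log2 values of -0.56 in naive, 0.93 in saline, -0.34 in siRNC and 0.79 in miR-27b. The reads behind them were 5, 15, 6 and 12.5, with a mean of 9.65 normalized reads, just under the minimum of 10. As with Krt19, saline and miR-27b were high and the naive and siRNC libraries were low. The log2 folds were 1.5 in saline against naive (-0.04 to 3.31), -1.27 in siRNC against saline (-2.93 to 0.17) and 1.13 in miR-27b against siRNC (-0.45 to 2.77), and each interval included 0.

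Gpc3 (25236), glypican-3, a heparan sulphate proteoglycan of fetal liver that binds Wnt and Hedgehog ligands, had another order of the libraries. Its log2 values were -2.66 in naive, 0.95 in saline, 0 in siRNC and -0.63 in miR-27b. The most probable reads were 2, 26, 13 and 8, with a probability of 0.706, and the set with all 4 numbers doubled (4, 52, 26 and 16) had a probability of 0.223. The naive library was the lowest and the 3 hepatectomised libraries ranked saline, siRNC, miR-27b from high to low.

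On the smaller set of reads, the log2 fold of Gpc3 was 3.61 in saline (1.61 to 6.73), 2.66 in siRNC (0.52 to 5.85) and 2.03 in miR-27b (-0.29 to 5.30) against naive. These 3 comparisons share the naive library with its 2 reads. Against saline, Gpc3 was -0.95 in siRNC (-2.04 to 0.06) and -1.58 in miR-27b (-2.93 to -0.39), and the miR-27b and siRNC libraries were not separable at this depth (-0.63, -2.10 to 0.75). Doubling the reads leaves the folds as they are, and a pseudocount of 5 lowers those against naive to 2.09, 1.35 and 0.92.

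**Figure D2:**
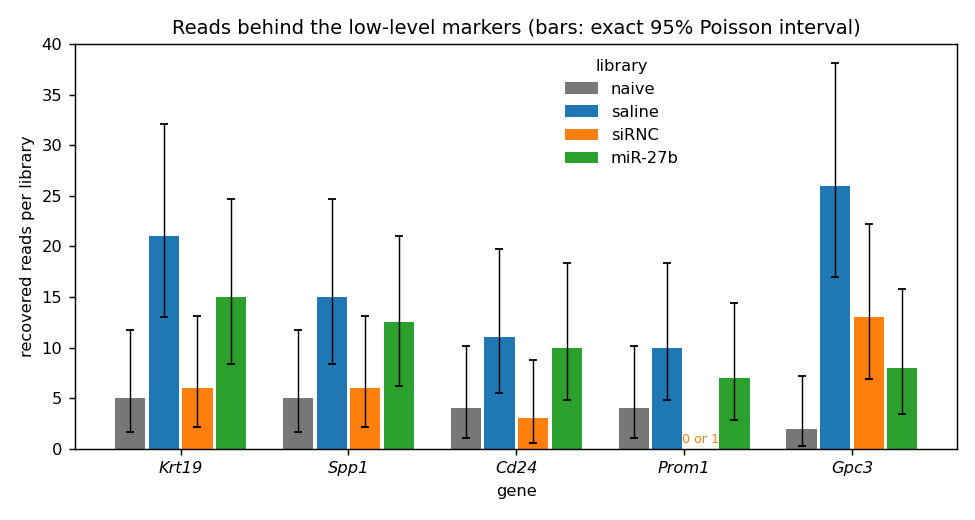
Recovered reads per library for the 5 markers whose reads could be inferred, with exact 95% Poisson intervals as bars from a count rounded to a whole number; the siRNC library of Prom1 is at the floor (0 or 1 read). Krt19 is at 20.99 reads in saline against 5 in naive, and the intervals of most neighbouring libraries overlap.

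Across the other comparisons, the kept members called at least 2-fold apart were few. Against naive, siRNC had 1 of 5 higher (Gpc3), beside 6.02% of all kept genes, and miR-27b had 2 of 5 higher (Krt19 and Gpc3), beside 8.36%. Against saline, siRNC had 1 of 5 lower (Krt19), beside 1.79%, and miR-27b had 1 of 5 lower (Gpc3), beside 1.74%. Between the cell treatments, miR-27b had 1 of 5 higher than siRNC (Krt19), beside 3.22%. Each of these calls is of Krt19 or Gpc3, which passed the filter near its minimum and largely through the libraries in which they were high. These counts too describe the 2 genes and support nothing.

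By direction alone, all 5 kept members were below saline in siRNC, with a median log2 fold of -0.52, where 50.8% of all kept genes were below. All 5 were above naive in siRNC (median 0.30, 49.4% of all kept genes) and in miR-27b (median 0.87, 47.7%). In miR-27b against siRNC 4 of 5 were above (median 0.49, 50.6%), and in miR-27b against saline 2 were above (50.3% of all kept genes) and 3 below (49.7%), with a median of -0.37. These comparisons share libraries, so their directions are not separate pieces of evidence. Krt19 and Gpc3 passed the filter largely through the libraries in which they were high. The directions and medians of the 5 therefore describe the members and support nothing. With a mean of at least 50 reads, which leaves out both genes, the median in miR-27b against saline was 0.08.

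**Figure D3:**
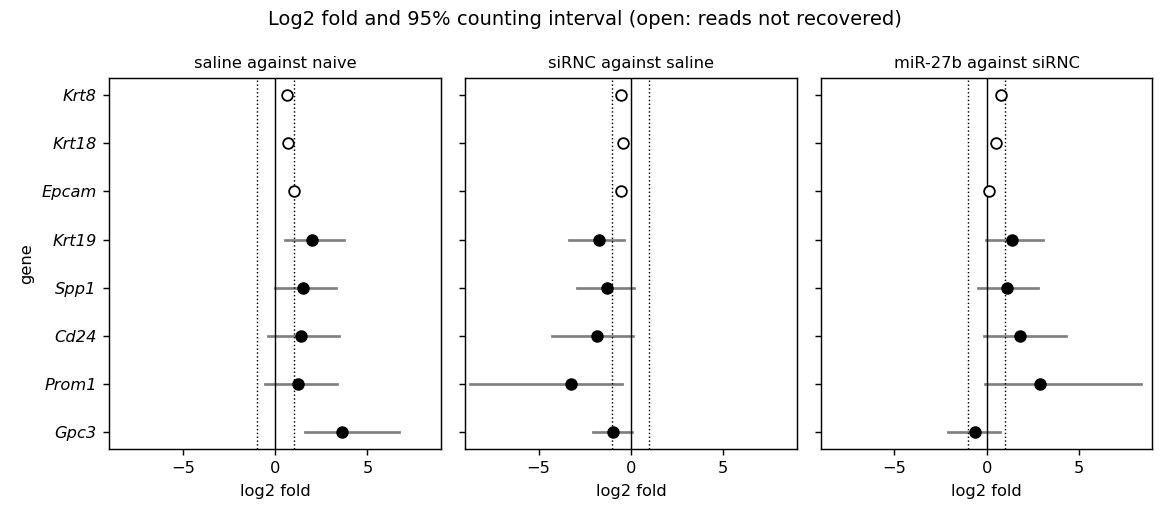
Log2 fold of the 8 markers in 3 comparisons with exact 95% counting intervals where reads were recovered (filled points); open points are markers without recovered reads, and dotted lines mark 2-fold. Of the recovered markers, the intervals of Krt19 and Gpc3 in saline against naive and of Krt19 and Prom1 in siRNC against saline do not include 0.

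Over all 4 libraries, 7 of the 8 markers with a value had both saline and miR-27b above both naive and siRNC, the exception being Gpc3. Of all 12874 genes with a value, 17.8% had that order. Of the 8, 6 were highest in saline (20.5% of all genes with a value) and 2, Krt8 and Krt18, in miR-27b (28%). The lowest library was naive for 6 (27.8%) and siRNC for 2, Cd24 and Prom1 (20.4%). Among the 5 kept members the order was found in 4, against 18.4% of all kept genes. Krt19, 1 of these 4, passed the filter largely through its saline and miR-27b reads. The 7 include Spp1, Cd24 and Prom1, which were under the filter, and the set was put together with earlier results known. Both counts therefore describe the members and support nothing. The order was also found in 11 of 17 kept macrophage and Kupffer cell genes and in 8 of 11 kept endothelial genes. Of the other biliary genes 3 of 14 kept had it, and 10 of 31 with a value (32.3%, beside 17.8% of all genes with a value). Of the keratin partners 2 of 13 kept had it, and of the Notch genes 2 of 18. The fetal and hepatoblast list had it in 1 of 5 kept genes, and the stellate and matrix list in 3 of 13. Plasma proteins had it in 6 of 18, and osteopontin and glypican partners in 4 of 12. The part of the macrophage and endothelial genes in the marker result was not tested.

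The same macrophage list was at least 2-fold above naive for 14 of 17 genes in saline, 10 in siRNC and 15 in miR-27b. The shares of all kept genes were 5.83%, 6.02% and 8.36%. The medians of the macrophage list were 1.28, 1.02 and 1.48. The endothelial list had medians of 0.44, 0.07 and 0.67, with Flt1 and Stab1 at 0, and the stellate and matrix list had 0.58, 1.03 and 0.78 over 13 genes. A summed level per list was not formed, because the table holds differences within genes. Timd4 was at 0 among the macrophage genes, and 4 of 6 mesothelial markers (Lrrn4, Upk1b, Upk3b and Wt1) were at 0, none of that list being kept. Of the neutrophil, B and T cell list 1 of 14 genes was kept. All 18 hepatocyte plasma protein genes were kept, so the labelled tissue held its defining transcripts, and their median log2 fold in saline against naive was -0.01. It was 0.19 in miR-27b against naive, with 4 genes at least 2-fold higher, beside 8.36% of all kept genes. These were the fibrinogen chains Fga, Fgb and Fgg and the haem carrier Hpx. In miR-27b against siRNC the median was 0.22, the shift that centring on this list removes.

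Of the other biliary genes that were kept, 11 were above naive in saline and 3 below, where 48.8% of all kept genes were above. Of 34 listed, 31 had a value, 14 were kept, and Pkhd1 and Vtcn1 were among those at 0. In saline against naive 4 of the 14 were at least 2-fold higher and 0 lower (median 0.24), beside 5.83% and 3.85% of all kept genes. In siRNC against saline 0 were higher or lower (median -0.08), where 1.79% of all kept genes were lower. The highest in saline was Onecut1, a transcription factor of hepatocyte and biliary development, at a log2 fold of 2.68.

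Against naive, Onecut1 was at 2.68 in saline, 3.62 in siRNC and -0.15 in miR-27b, and its log2 fold in miR-27b against siRNC was -3.77. Elf3, an epithelial transcription factor, was the highest kept biliary gene in miR-27b against siRNC, at 1.20 (0.11 to 2.38), from 11.22 and 24.48 reads. Aqp1, the water channel of cholangiocytes and endothelium, was the lowest kept biliary gene in siRNC against saline, at -0.74 (-1.12 to -0.38).

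The fetal and hepatoblast list gave 5 kept genes of 16. In saline against naive 1 was at least 2-fold higher and 2 lower, beside 5.83% and 3.85% of all kept genes. Tnfrsf12a, the TWEAK receptor that progenitor cells carry, was the highest kept gene in saline against naive at 1.21 (0.54 to 1.86). Its reads were 28.52, 70, 36 and 50 in the naive, saline, siRNC and miR-27b libraries. Axin2, a Wnt target, was the lowest at -1.25. Afp, alpha-fetoprotein, which was named after its value was seen, was at -0.52. Dlk1, Hmga2, Igf2bp1 and Lin28b were at 0.

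In the Notch list, which covers a pathway that directs bile duct development, 18 of 27 genes were kept. In saline against naive 1 was higher and 3 lower at 2-fold (median -0.07), beside 5.83% and 3.85% of all kept genes. Sox4, a biliary transcription factor, was highest at 1.39 (0.24 to 2.67), and Hes1, a Notch target, was lowest at -1.42. Between hepatectomised livers Notch4, an endothelial receptor, was the highest kept gene of the list against saline, at 1.27 in siRNC and 1.58 in miR-27b.

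Of 13 kept genes of keratin partners and other filament and junction proteins, 2 were at least 2-fold higher in saline than in naive (median 0.46). The share of all kept genes was 5.83%. Ppl, periplakin, a linker of keratins to desmosomes, was highest at 1.70. The other called gene was Vim at 1.22, named after its value was seen, the intermediate filament of mesenchymal cells and no keratin partner. Jup, plakoglobin, was lowest at -0.32. Of 12 kept receptors and ligands of osteopontin and glypicans, 2 were higher and 1 lower (median 0.28), beside 5.83% and 3.85% of all kept genes. Itga4, an integrin subunit that binds osteopontin, was highest at 1.64, and Ihh, a Hedgehog ligand, lowest at -1.74 (-2.65 to -0.84). Cd44, the hyaluronan and osteopontin receptor, was the highest kept gene of that list in miR-27b against siRNC at 1.41 (1.02 to 1.82). Its most probable reads were 75 and 190.

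**Figure D4:**
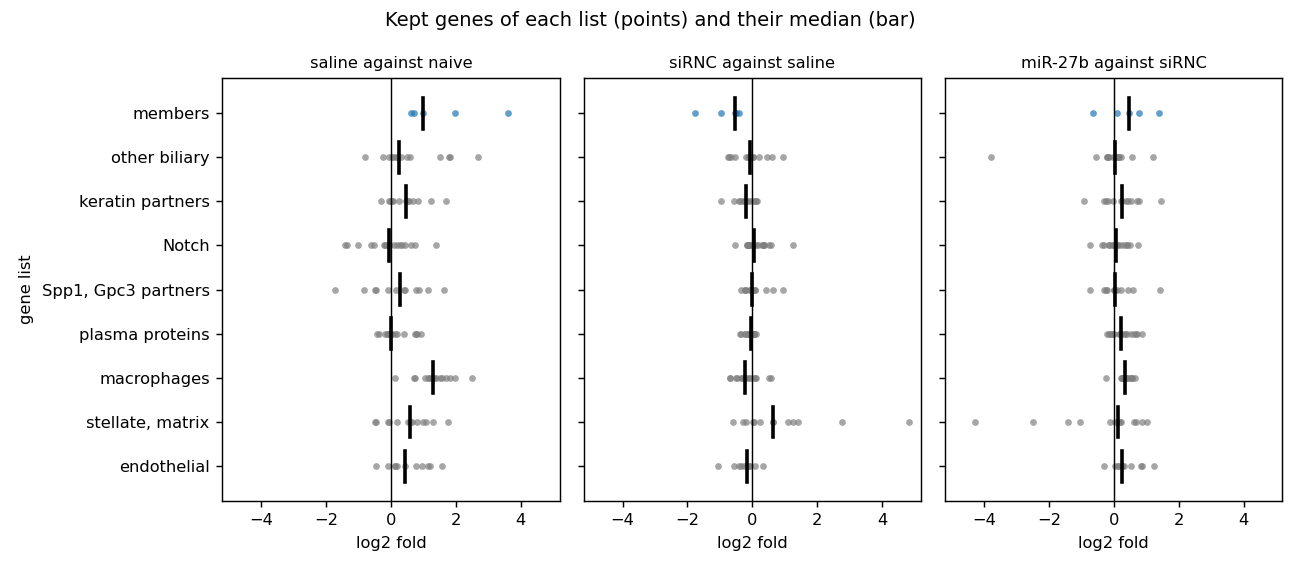
Log2 fold of the kept genes (points) and their median (bar) for the markers and 8 companion lists in 3 comparisons, 1 library per group. The medians of the markers (0.99, -0.52 and 0.49) stand beside 0.24, -0.08 and 0.03 for the other biliary genes and 1.28, -0.21 and 0.36 for the macrophage genes.

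Ranked by distance over the 4 centred log2 values, the kept genes outside the markers most like Krt19 were Ntsr1 (0.26), Ddr1 (0.30) and Fkbp5 (0.32). Ntsr1 is a neurotensin receptor, Ddr1 a collagen receptor of epithelial cells and Fkbp5 a glucocorticoid-induced chaperone. Among the markers, Spp1 lay at 0.41 from Krt19 and Cd24 at 0.55, whereas Krt8 lay at 1.09, Krt18 at 1.14 and Gpc3 at 1.94. The measure rests on 4 values per gene, and Krt19 itself had between 5 and 20.99 reads. The counting SD of 1 log2 ratio at 16 reads in each library, 0.51, exceeds the distances of Ntsr1, Ddr1 and Fkbp5 from Krt19.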

How the data were processed

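Poly(A)-selected liver mRNA was sequenced after TruSeq preparation, per the labels' protocols. The authors' deposited table holds normalized log2 values. DESeq (version not stated) and the build rn5 are named, per the submitters' processing notes. For aligner and counter, nothing is given in the sources used here. Each value looks like the log2 of a read number scaled by a size factor, with a floor of 1, less a baseline of the gene; 77.3% of the 12874 genes with a value have a library at exactly 0. Columns were matched to samples by title, and no column was left over. Total depth cannot be derived from the table. Size factors inferred from the values were 0.977 (naive), 1.039 (saline), 1.005 (siRNC) and 0.956 (miR-27b).

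Folds are differences of deposited values, with no pseudocount, since the values were log2 and not the linear values first planned for. Reads were inferred for 4328 genes (33.6%), assuming steps of 1/101 of a read, wherever one set reached a probability above 0.5; other genes got a level class of at least 16 or 256 normalized reads from the binary rounding of their values. A mean of at least 10, or a class, kept 9609 genes. The recovery was tested on simulated data, where not every set was recovered correctly. Its settings were revised several times after the markers' values had been seen, and the threshold was lowered from 0.9 to 0.5 after Gpc3 had reached 0.706. Above 0.9, Gpc3 has no inferred reads, 9446 genes are kept, and 5 markers are still kept. Gpc3 is then kept by its level class of at least 16 normalized reads. Neither of its inferred naive reads, 2 or 4, reaches that class, so this alternative is no check of the filter for Gpc3. Intervals are exact conditional binomial (Clopper-Pearson, 95%) from reads rounded to whole numbers, with a library at the floor entered as 1 read. They leave out all but counting error, and PCR copies of a molecule count as separate reads.

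The markers, lists and settings were chosen with earlier results of these data known. Named genes are all 10 markers, the highest and lowest kept gene of each companion list in saline against naive and between hepatectomised livers (some left out for length, and some not reported here), and the 3 kept genes nearest to Krt19. Python 3.11.15, pandas 2.3.3, numpy 2.4.6, scipy 1.17.1 and matplotlib 3.10.9 were used.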

Additional observations from a re-analysis of the deposited data

Results flagged for a closer look

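In 4 markers the siRNC and miR-27b libraries lay on opposite sides of a shared reference library, with 1 library on each side, and the difference was not tested. Cd24 was below naive in siRNC (-0.46) and above it in miR-27b (1.35), a difference of 1.81 on the log2 scale from 3 and 10 reads. Prom1 was below naive in siRNC (-2.03, at the floor) and above it in miR-27b (0.84), a difference of 2.87. Krt8 was below saline in siRNC (-0.52) and above it in miR-27b (0.24), a difference of 0.77. Krt18 was below saline in siRNC (-0.41) and above it in miR-27b (0.08), a difference of 0.49, and the second sign turns under centring on plasma proteins.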

How the results depend on the processing

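With 1 library per group, leaving out a replicate was not possible. No paired analysis was possible because each group holds 1 library. Counts of markers at least 2-fold apart rest on few reads and on the filter. With no filter (8 markers) 5 were higher in saline than in naive (8.48% of all genes with a value) and 4 in miR-27b (12.7%), the 2 in siRNC were 1 higher (8.89%) and 1 lower (6.19%), 4 were lower in siRNC than in saline (4.02%) and 4 higher in miR-27b than in siRNC (7.14%), with medians of 1.30 (saline against naive), -1.11 (siRNC against saline) and 0.95 (miR-27b against siRNC). With a mean of at least 50 reads, which leaves Krt8, Krt18 and Epcam, all 6 counts were 0, and the medians were 0.70 in saline against naive and 0.08 in miR-27b against saline, where the reported median is -0.37. A pseudocount of 20 normalized reads left 1 marker in saline against naive and 0 in the other 5 comparisons. A pseudocount of 5 left 1 in miR-27b against naive and 0 in miR-27b against siRNC. No share of all genes stands beside the counts under a pseudocount, a mean of at least 50 reads or doubled reads. Whether those changes are particular to the markers can therefore not be told. At 1.5-fold, 5 were higher in saline (13% of kept genes) and 4 in miR-27b (14.9%) than in naive, 2 were lower in siRNC than in saline (7.02%), and the 3 in miR-27b against siRNC were 2 higher (8.81%) and 1 lower (8.15%). Doubling the reads of Spp1 and Gpc3, chosen after seeing the data, brings Spp1 past the filter and gave a median of 1.24 in saline against naive and counts of 2 in siRNC against saline and 2 in miR-27b against siRNC. The mean in place of the median was 1.58, 0.75 and 1.18 in saline, siRNC and miR-27b against naive and -0.83 in siRNC against saline. The threshold of 0.9 on the probability, also added after seeing the data, and both centrings moved no count by more than 1.5 times and no median by 0.25 or more. At that threshold Gpc3 was kept by its level class alone. Centred on plasma proteins, the median in miR-27b against siRNC was 0.27 in place of 0.49. Of 144 values of single markers under alternatives, 2 changed sign, those of Krt18 and Epcam given above, and 11 folds moved by over 1.5 times, all with a pseudocount of 5 and all toward 0. These were 3 of Gpc3, 3 of Prom1, 4 of Cd24 and 1 of Krt19. Beside those given above, Prom1 in siRNC against naive went from -2.03 to -0.60 and Cd24 in miR-27b against naive from 1.35 to 0.77.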
